A study of Mus musculus with 4 samples.

Results

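*Tbx21*, *Eomes*, *Runx1*, *Runx2*, *Runx3*, *Zeb2*, *Bhlhe40* and *Hopx* encode 8 transcriptional regulators known from TH1 cells, the interferon-γ-producing helper T cells, and from effector T cells, and their transcripts were compared between Rictor-null and WT follicular helper T (TFH) cells. A gene counted as measured where the annotation of the array names a probe set for its symbol alone, and the probe set with the highest mean over the 4 arrays stood for the gene. By this rule 7 of the 8 genes were measured, of 18193 genes in all, and 19 of 45037 probe sets belonged to them. No probe set carried the symbol *Runx2* in the tables used here, so that gene was not analysed here.

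RNA came from TFH cells sorted from the spleen at day 8 after infection of young adult mice of both sexes with the Armstrong strain of lymphocytic choriomeningitis virus (LCMV), which causes an acute infection. The Rictor-null mice carried *Rictor* fl/fl alleles and a *Cd4*-Cre transgene, and the WT mice were *Rictor* fl/fl littermates without it, so both groups had floxed alleles. Rictor is the subunit that defines mTOR complex 2 (mTORC2), and *Cd4*-Cre deletes from the CD4-expressing stage of thymic development onwards, which includes cells that later become CD8 T cells. Each group had 2 arrays, each of RNA pooled from several mice, so that the p-values below do not measure the spread between single mice. Those by limma rest on the spread between 2 pools per group, drawn toward the spread of other genes of like signal. They therefore depend in large part on spread borrowed from other genes. The sources used here give neither the strain background of the floxed line nor the gate of this sort. They also differ on the number of mice pooled. According to the paper, the pools of both groups came from the same experiment, with more Rictor-null than WT mice.

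The targeted gene was read first. The brightest of 5 *Rictor* probe sets gave intensities of 267 and 279 in the Rictor-null arrays and of 334 and 303 in the WT arrays. Both Rictor-null values lay below both WT values. The difference was -0.21 on the log2 scale (adjusted p = 0.0366 by limma over genes and 0.0868 over all probe sets), while it was -0.03 to 0.11 in the other 4. The exons that they read are not known here, and one that lies outside the floxed part checks nothing. Array medians were 19.98 to 20.4, and the correlation over probe sets was 0.998 within groups and 0.993 to 0.994 between them. Of 7 TFH marker genes 5 were lower in Rictor-null cells, as were 7.19% of all genes. The summed intensity of the 7 was 7832 to 8036 there against 10278 to 10649.7 in WT cells. Bright genes weigh most in such sums. The brightest here was *Icos*, with 4219 and 4477 in Rictor-null cells against 4423 and 4251, values that overlapped.

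As background, T-bet (*Tbx21*) and Eomesodermin (*Eomes*) are T-box factors that turn on interferon-γ and cytotoxic genes, and T-bet directs TH1 differentiation while the TFH program, led by Bcl6, holds it back. The Runx proteins bind DNA together with the shared partner CBFβ, and Runx3 works with T-bet on the interferon-γ gene. Zeb2, a zinc finger repressor, acts downstream of T-bet in terminal effector CD8 T cells. Bhlhe40 is a basic helix-loop-helix repressor needed for TH1 cytokine production, and Hopx is a small homeodomain protein without DNA binding of its own that is found in long-lived TH1 effector cells.

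Start-site sequences are shown because several of these genes are known to answer to one another's products, and the letters let a reader see which of the factors' motifs stand there. RefSeq (GRCm38.p6) gave 13 windows for 7 of the 8 genes, each from 250 bases before to 50 bases after an annotated start, and 6 are printed 5′ to 3′ in the direction of the gene. Capitals mark matches on either strand to 4 motifs. The T-box core GGTGTG, which reads CACACC on the other strand, is held by 19% of 32851 mouse windows. The Runx motif TGTGGT, or ACCACA on the other strand, is held by 16.8%, and the ZEB motif CACCTG, or CAGGTG on the other strand, by 20.2%. The palindromic E-box CACGTG, to which Bhlhe40 binds, is held by 7.15%. T-box and ZEB matches can overlap one another.
Runx1, chr16:92826025-92826324, minus strand: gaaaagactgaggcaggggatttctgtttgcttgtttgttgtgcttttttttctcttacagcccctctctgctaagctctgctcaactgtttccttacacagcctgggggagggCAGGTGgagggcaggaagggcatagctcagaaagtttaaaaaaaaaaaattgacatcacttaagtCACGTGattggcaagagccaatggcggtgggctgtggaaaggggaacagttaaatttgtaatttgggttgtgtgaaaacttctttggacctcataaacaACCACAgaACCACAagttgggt
Runx3, chr4:135120395-135120694, plus strand: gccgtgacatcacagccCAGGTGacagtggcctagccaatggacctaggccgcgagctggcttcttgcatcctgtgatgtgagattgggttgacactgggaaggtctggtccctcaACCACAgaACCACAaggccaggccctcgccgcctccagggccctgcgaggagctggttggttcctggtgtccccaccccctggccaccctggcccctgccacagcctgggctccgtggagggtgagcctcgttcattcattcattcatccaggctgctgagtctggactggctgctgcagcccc
Tbx21, chr11:97115282-97115581, minus strand: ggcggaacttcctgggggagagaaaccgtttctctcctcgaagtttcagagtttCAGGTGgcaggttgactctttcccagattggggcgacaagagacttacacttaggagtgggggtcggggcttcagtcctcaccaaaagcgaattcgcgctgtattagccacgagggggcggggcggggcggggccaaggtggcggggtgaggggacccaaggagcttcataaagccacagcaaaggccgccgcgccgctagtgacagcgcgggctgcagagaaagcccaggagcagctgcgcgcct
Eomes, chr9:118477939-118478238, plus strand: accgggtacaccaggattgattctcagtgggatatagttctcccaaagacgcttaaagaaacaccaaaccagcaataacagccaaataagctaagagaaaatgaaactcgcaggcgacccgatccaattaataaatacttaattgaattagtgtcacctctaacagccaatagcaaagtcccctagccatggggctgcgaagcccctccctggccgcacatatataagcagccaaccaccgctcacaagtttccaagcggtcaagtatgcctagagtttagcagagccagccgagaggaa
Zeb2, chr2:45110228-45110527, minus strand: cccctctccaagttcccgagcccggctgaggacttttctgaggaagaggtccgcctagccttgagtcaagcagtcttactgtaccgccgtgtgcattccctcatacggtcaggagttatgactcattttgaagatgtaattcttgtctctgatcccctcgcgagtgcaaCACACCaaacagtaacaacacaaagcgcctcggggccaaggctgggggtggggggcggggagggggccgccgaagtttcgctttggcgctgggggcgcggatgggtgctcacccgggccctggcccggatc
Hopx, chr5:77095218-77095517, minus strand: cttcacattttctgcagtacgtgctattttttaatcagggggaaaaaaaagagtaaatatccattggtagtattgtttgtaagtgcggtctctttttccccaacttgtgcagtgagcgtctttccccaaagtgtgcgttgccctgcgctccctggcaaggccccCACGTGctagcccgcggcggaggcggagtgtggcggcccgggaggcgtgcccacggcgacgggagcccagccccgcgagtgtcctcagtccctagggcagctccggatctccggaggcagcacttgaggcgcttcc
Of the 5 windows of the Runx genes, 3 share one feature. The *Runx1* and *Runx3* windows printed and the window of *Runx2* each hold 2 Runx matches with 2 bases between them, at 28 and 36 bases after the start in *Runx1* and at 134 and 126 bases before it in *Runx3*. Such a pair, with both matches on the same strand, stood in 7 of the 32851 windows, or 0.0213%. These windows are 3 of the 7. The spacing counted was the one that these windows hold, so the share describes the pattern and tests nothing. The other windows of *Runx1* and *Runx3* hold no match to any of the 4 motifs. The *Zeb2* window printed holds a T-box match 81 bases before its start. Of the other 3 *Zeb2* windows, 2 overlap and hold another T-box match, and the last holds no match. The *Hopx* window printed holds an E-box match 86 bases before its start and the second *Hopx* window holds none, so that the windows printed are those with a match wherever a gene had several. The *Tbx21* window holds a ZEB match 196 bases before its start. The *Eomes* window holds none of the 4 letter strings. A match is a description of the sequence and not a bound site, and which start these cells use was not measured.

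Among the T-box genes, *Eomes* rose without Rictor and *Tbx21* did not pass the test. The *Eomes* intensities were 381 and 325 in the Rictor-null arrays and 228 and 231 in the WT arrays. Both Rictor-null values stood above both WT values. The group means were 353 ± 39.6 and 229.6 ± 2.52 (SD, n = 2 each), a ratio of 1.54, and the log2 fold change was 0.58 (standard error 0.07, adjusted p = 0.00011 by limma). Of all genes, 1.65% had a larger log2 fold change in either direction. The second *Eomes* probe set was dimmer and gave 229.8 and 254 in Rictor-null cells against 162 and 174 in WT cells. It too was higher, at 0.49 on the log2 scale (adjusted p = 0.00238 by limma over all probe sets).

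The *Tbx21* intensities were 611 and 619 in the Rictor-null arrays and 645 and 695 in the WT arrays. The Rictor-null values were the lower ones and the groups did not overlap. The means were 615 ± 5.34 and 669.9 ± 35.6 (SD, n = 2 each), and the log2 fold change was -0.12 (standard error 0.05). It did not pass the threshold (adjusted p = 0.151 by limma), with a 95% interval of the difference from -0.23 to -0.0041 before adjustment. *Tbx21* had 1 probe set only. As these are bulk samples, fewer cells of a type and less RNA per cell cannot be told apart, for this gene and for those that follow.

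**Figure D1:**
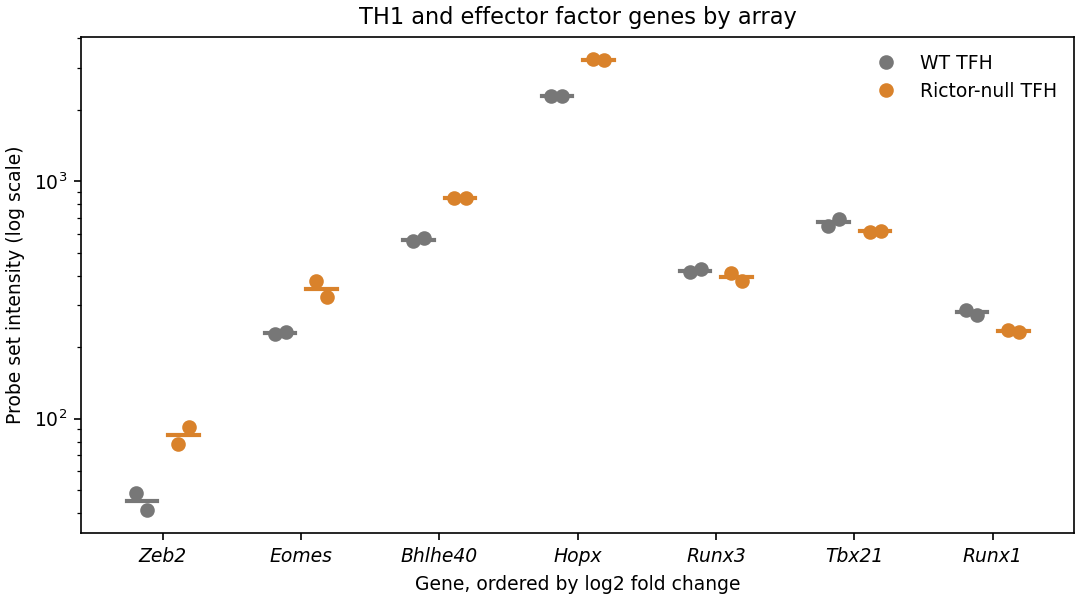
Probe set intensity (log axis) of the 7 measured genes on each of the 4 arrays, as deposited, with WT in grey, Rictor-null in orange and a line at each group's mean. The pairs of points do not overlap for any gene, as for 55.5% of all genes, but those of *Runx3* nearly touch, at 411 and 414. Rictor-null is above for *Zeb2*, *Eomes*, *Bhlhe40* and *Hopx*. The heights of different genes cannot be compared because each has its own probes.

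By its brightest probe set *Zeb2* had the largest fold change of the 7 genes, a rank that it lost to *Hopx*, *Bhlhe40* and *Eomes* with the mean of all probe sets and to *Eomes* without Rictor-null replicate 2. Its intensities were 78.5 and 92.2 in the Rictor-null arrays and 48.6 and 41.1 in the WT arrays. The higher WT value was well under the lower Rictor-null value. The means were 85.3 ± 9.64 and 44.8 ± 5.27 (SD, n = 2 each), a ratio of 1.90. On the log2 scale *Zeb2* rose by 0.74 (standard error 0.10, adjusted p = 0.000168 by limma), and 0.72% of all genes had a larger change. The addition of 16 to each intensity before the logarithm draws in the change of a dim gene, and with 1 added instead *Zeb2* stood at 0.91.

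All 5 *Zeb2* probe sets were brighter in Rictor-null cells. The next brightest gave 51.2 and 60.9 against 30.4 and 31.2, a log2 fold change of 0.62 (adjusted p = 0.00202 by limma over all probe sets), and the third gave 34.9 and 32.6 against 20.7 and 23.0 (0.40, adjusted p = 0.0121 by limma). The remaining 2 were at intensities of 4.63 to 7.25, under the median of every array, and did not pass the threshold. Taken as the mean of all 5, *Zeb2* rose by 0.38 on the log2 scale.

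*Bhlhe40* rose with little spread between the pools of a group. Its intensities were 849 and 852 in the Rictor-null arrays and 562 and 573 in the WT arrays. The 2 pools of each group nearly coincided and the groups were far apart. The means were 850.3 ± 2.44 and 567 ± 8.14 (SD, n = 2 each), a ratio of 1.498, and the log2 fold change was 0.57 (standard error 0.05, adjusted p = 7.23e-06 by limma). Of all genes, 1.77% had a larger one.

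*Hopx* intensities were 3256 and 3223 in the Rictor-null arrays and 2290.3 and 2280.1 in the WT arrays. Again the pools of a group lay close together, with Rictor-null above WT. The means were 3239.8 ± 23.0 and 2285 ± 7.198 (SD, n = 2 each), a ratio of 1.42, and the log2 fold change was 0.50 (standard error 0.04, adjusted p = 4.44e-06 by limma). A second probe set gave 1252 and 1254 against 815 and 775, and was higher by 0.65 (adjusted p = 6.10e-05 by limma over all probe sets).

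Of the Runx genes, *Runx1* fell and *Runx3* did not pass the test. *Runx1* intensities were 236 and 231 in the Rictor-null arrays and 285 and 274 in the WT arrays. Both Rictor-null values lay below both WT values. The means were 234 ± 3.65 and 279.7 ± 8.10 (SD, n = 2 each), 1.20 times higher in WT, and *Runx1* fell by 0.24 on the log2 scale (standard error 0.06, adjusted p = 0.0111 by limma), while 15.1% of all genes had a larger change. The call was lost without WT replicate 1 (-0.22, adjusted p = 0.131 by limma) and without WT replicate 2 (-0.27, adjusted p = 0.0818 by limma).

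All 6 *Runx1* probe sets had a negative log2 fold change, between -0.69 and -0.11, and 3 of them passed the threshold over all probe sets. The largest fall was in a dim one, with 37.3 and 40.7 in Rictor-null cells against 64.9 and 81.0 in WT cells (-0.69, adjusted p = 0.00183 by limma). Another gave 82.4 and 91.7 against 108 and 111 (-0.29, adjusted p = 0.0441 by limma). The probe sets of *Runx1* therefore differed in size, from -0.11 to -0.69, and the transcripts or exons that each one reads are not known here.

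*Runx3* intensities were 411 and 381 in the Rictor-null arrays and 414 and 426 in the WT arrays. The groups did not overlap, but the nearest values of the groups were 411 and 414. The means were 396 ± 21.2 and 419.8 ± 8.27 (SD, n = 2 each), and the log2 fold change was -0.08, with a standard error of 0.06 and a 95% interval from -0.21 to 0.04 (adjusted p = 0.406 by limma). The second *Runx3* probe set was dim and went the other way, with 47.8 and 39.9 in Rictor-null cells and 34.5 and 33.5 in WT cells (0.26, adjusted p = 0.118 by limma over all probe sets). The direction of *Runx3* thus depended on the probe set, and the mean of both gave 0.09.

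**Figure D2:**
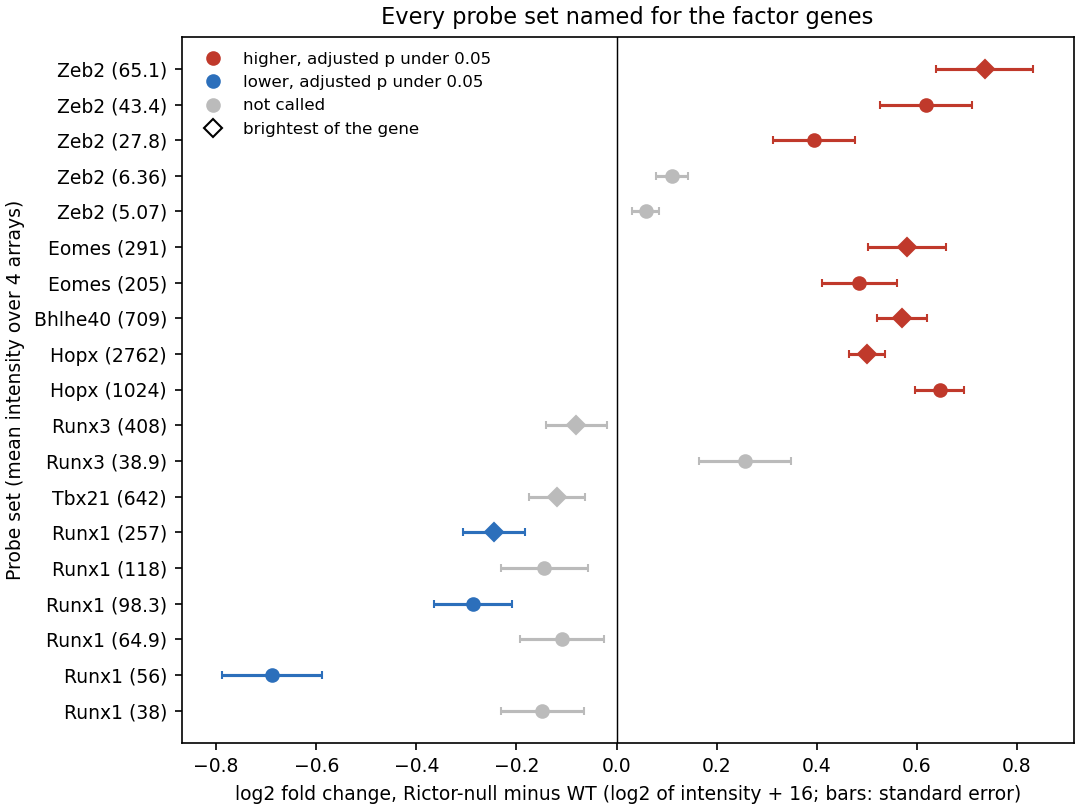
Log2 fold change (Rictor-null minus WT) with its standard error for all 19 probe sets named for the 7 genes, labelled with their mean intensity over the 4 arrays, diamonds marking the brightest of a gene and colour the call over all probe sets. All probe sets of *Zeb2*, *Eomes*, *Bhlhe40* and *Hopx* lie right of 0, all 6 of *Runx1* lie left of it and the 2 of *Runx3* lie on either side.

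Over the 7 measured genes, 4 rose, 1 fell and 2 did not pass the test, where 12.5% of the 18193 genes rose and 7.19% fell. In all 7 the arrays of the groups did not overlap, as was the case for 55.5% of all genes. The median log2 fold change was 0.50 for the 7 genes and 0.0068 for all genes. By probe set, 8 of 19 were higher, 3 lower and 8 not called, where 6.38% of the 45037 probe sets were higher and 4.63% lower.

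**Figure D3:**
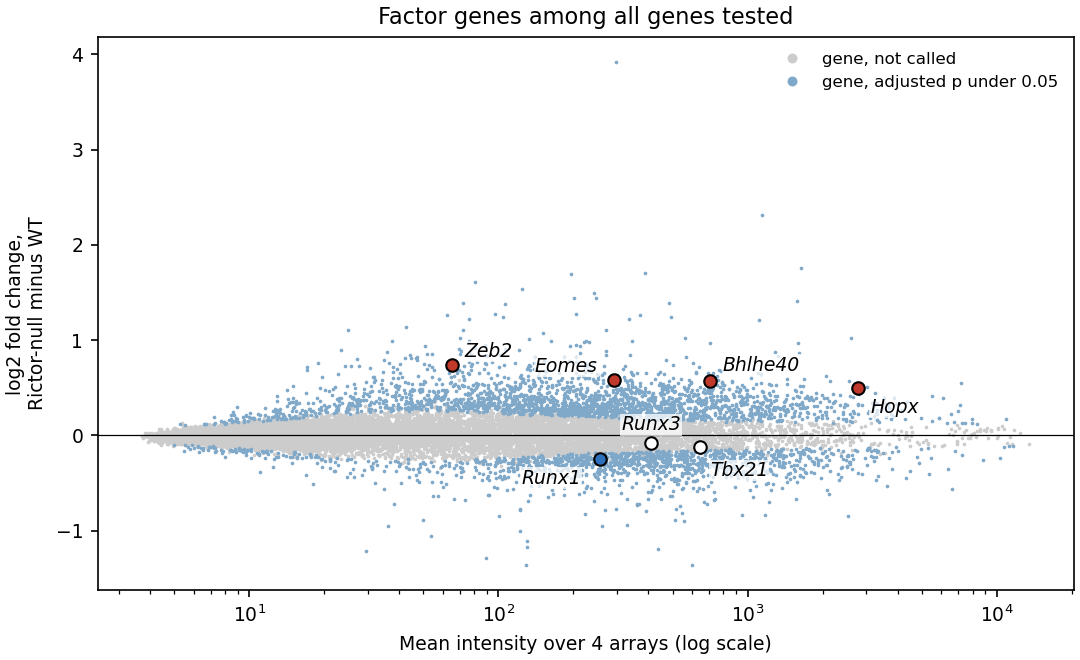
Log2 fold change (Rictor-null minus WT) against mean intensity over the 4 arrays (log axis) for 18193 genes, blue dots being genes with an adjusted p under 0.05 by limma and the 7 factor genes drawn as large circles, red for higher, blue for lower and white for not called. *Zeb2*, *Eomes*, *Bhlhe40* and *Hopx* stand at 0.50 to 0.74, *Runx1* at -0.24, and *Runx3* and *Tbx21* close to 0.

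Relatives and partners of the factors were read beside the 12.5% of all genes that rose and the 7.19% that fell. Of 15 measured genes of the same families (T-box, Zeb and Bhlhe), 1 rose, 0 fell and 14 did not pass, and 11 of them were at or under the array median. *Zeb1*, the paralog that Zeb2 opposes in CD8 T cells, had intensities of 324 and 317 in Rictor-null cells and 366 and 339 in WT cells (-0.13, adjusted p = 0.166 by limma). *Bhlhe41*, the closest relative of *Bhlhe40*, was the one that passed, but at 12.9 and 11.1 against 9.53 and 7.91 it was under the median of every array (0.18, adjusted p = 0.0278 by limma).

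Of 11 measured Runx partners and co-repressors, 2 fell, 0 rose and 9 did not pass. *Cbfb*, which encodes the CBFβ subunit that all Runx proteins need, had intensities of 1553 and 1439 in Rictor-null cells and 1679 and 1693 in WT cells. It fell by 0.17 on the log2 scale (adjusted p = 0.0217 by limma). The other was *Tle3*, a Groucho co-repressor, which fell by 0.44 (adjusted p = 3.85e-05 by limma).

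Genes of the signals around TH1 induction were split. Of 18 measured receptors, kinases, STATs and other transcription factors of the interferon-γ, IL-12, IL-18, IL-27 and IL-2 pathways and of TH1 induction, 5 rose, 6 fell and 7 did not pass, with a median log2 fold change of -0.07. The shares over all genes were 12.5% that rose and 7.19% that fell. The 4 with the smallest p all rose. They were *Ifngr1*, the ligand-binding chain of the interferon-γ receptor (0.66), *Il18rap*, a chain of the IL-18 receptor (0.54), *Stat4*, the STAT activated by IL-12 (0.34), and *Il2ra*, a chain of the IL-2 receptor at intensities of 21.2 and 17.4 against 12.03 and 11.05 (0.36). The 6 that fell were *Jak2* (-0.24), *Il27ra* (-0.26), *Ifngr2* (-0.20), *Tyk2* (-0.20), *Stat5b* (-0.17) and *Il2rb* (-0.18). *Ifngr2*, the other chain of the interferon-γ receptor, was under the median of every array. *Il12rb2*, *Il18r1*, *Il18rap*, *Hlx* and *Il2rb* are also counted in the next list, of T-bet and Eomesodermin targets.

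Of 23 measured genes known as targets of T-bet and Eomesodermin, 18 rose, 2 fell and 3 did not pass, with a median of 0.65. Of all genes, 12.5% rose and 7.19% fell. *Tbx21* itself did not pass the test. The smallest p-values were those of 2 granzymes and 2 killer cell lectin-like receptors. *Gzma* had intensities of 1998 and 1823 in Rictor-null cells against 359 and 381 in WT cells, a ratio of 5.16, and *Gzmk* of 2337 and 2281 against 886 and 838, a ratio of 2.68. *Klrg1* rose by 1.39 and *Klrd1* by 1.21 on the log2 scale. *Ifng*, the interferon-γ gene, gave 1121 and 1187 against 946 and 918, a rise of 0.30 (adjusted p = 0.00068 by limma), and *Cxcr3*, the chemokine receptor of TH1 cells, gave 3050 and 3523 against 3593 and 3871 (-0.19, adjusted p = 0.0493 by limma). The other gene that fell was *Il2rb*, named here because it was one of 2.

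All 8 measured genes known to be raised with *Zeb2* in terminal effector cells rose, with a median of 0.80, where 12.5% of all genes rose. Those with the smallest p were *Gzma*, *Klrg1*, *Cx3cr1*, the fractalkine receptor (0.95), and *Gzmb*, granzyme B (0.64). All of these and *S1pr5* are also in the previous list. Only *Itgam*, *Klre1* and *Prdm1* were not counted there. Of 8 measured genes known to be lowered with *Zeb2*, 4 fell, 2 rose and 2 did not pass, with a median of -0.03. Over all genes, 7.19% fell. *Cxcr5*, the chemokine receptor that brings TFH cells to the follicle, fell by 0.70 and *Cd27*, a co-stimulatory receptor of memory precursors, by 0.31. The 2 that rose were *Il2* (0.84) and *Il7r* (0.53), the latter the IL-7 receptor chain of memory precursor cells.

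Of 10 genes linked to Bhlhe40, 3 rose, 1 fell and 6 did not pass, with a median of 0.07. Over all genes, 12.5% rose and 7.19% fell, for this list and the next. *Maf*, a factor of IL-10 and IL-21 production, had intensities of 864 and 814 in Rictor-null cells against 1472 and 1546 in WT cells and fell by 0.84. The 3 that rose were the cytokine genes *Il2* (0.84), *Csf2* (0.37) and *Ifng* (0.30). Of 14 genes bound by Runx factors, most of them T cell genes, 5 rose, 2 fell and 7 did not pass, with a median of 0.04. *Csf1r* and *Spi1* of this list are also among the myeloid markers read below, and neither passed. The smallest p-values there were those of *Gzmb* (0.64), *Bcl6* (-0.94), *Il2* (0.84) and *Prf1*, perforin (0.71). *Eomes* is itself one of the 14 and one of the 5 that rose.

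Among 12 measured factors of other helper lineages, 3 rose, 5 fell and 4 did not pass, with a median of -0.15. Over all genes, 12.5% rose and 7.19% fell. *Bcl6*, the lead factor of TFH cells, had intensities of 208 and 231 in Rictor-null cells against 467 and 408 in WT cells and fell by 0.94. *Prdm1*, which encodes Blimp-1 and is repressed by Bcl6, rose by 0.46, and *Id2*, an inhibitor of E proteins found in effector T cells, rose by 0.57. The lists were drawn from textbook knowledge with earlier results of these data known. Their counts are therefore descriptions and not independent support for the activity of a factor. They overlap in several genes and were each read beside the median of 0.0068 for all genes.

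**Figure D4:**
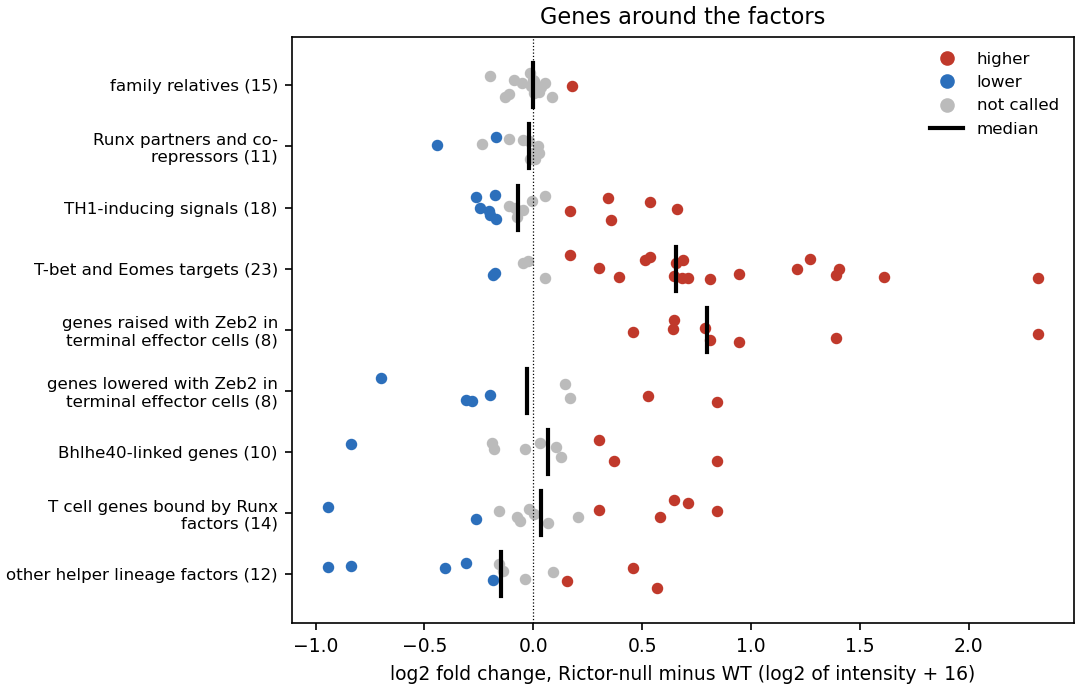
Log2 fold change (Rictor-null minus WT) of each measured gene in 9 lists around the factors, with the number of measured genes in brackets, a bar at the median and colour for genes called higher (red) or lower (blue) at an adjusted p under 0.05 by limma. The targets of T-bet and Eomesodermin (median 0.65) and the genes raised with *Zeb2* (median 0.80) lie mostly right of 0, the other lists on both sides of it.

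Several of the 7 factors are also made by other cells, *Eomes*, *Tbx21*, *Zeb2* and *Hopx* by NK and CD8 T cells and *Zeb2* by myeloid cells, so the markers of those cells were read on the same arrays. The marker counts here and in the next paragraph stand beside 12.5% of all genes that rose and 7.19% that fell. Of 6 measured markers of NK cells and type 1 innate lymphoid cells, 1 rose, 0 fell and 4 were at or under the array median, and the summed intensity was 94.2 to 102 in Rictor-null cells against 82.6 to 86.1 in WT cells. *Ncr1*, which defines these cells, stood at 10.1 and 10.1 against 10.8 and 12.6, under the median of every array, and the brightest of the list was *Tyrobp*, which rose. *Gzma*, *Klrd1*, *Klre1*, *S1pr5* and *Prf1* of the lists above also rose and were not counted among these markers. Of the 2 CD8 chains, *Cd8b1* gave 139 and 123 against 90.1 and 82.2 and rose by 0.53 (adjusted p = 0.000605 by limma), while *Cd8a* gave 23.7 and 25.2 against 24.7 and 24.0, values that overlapped. Their part in the rise of the factors was not tested.

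Of 14 measured myeloid markers 3 rose, 0 fell and 4 were at or under the array median, with a sum of 651 to 707 in Rictor-null cells against 577 to 612 in WT cells. The 3 that rose were *Lyz2* (0.77), *Itgam* (0.64), which the list of genes raised with *Zeb2* holds as well, and *S100a8* (0.31). The brightest was *Cebpb*, at -0.15, which did not pass. B cell markers summed to 151 to 155 against 133 to 141, with 7 of 9 at or under the array median, and 2 of them rose. Plasma cell markers summed to 1631 to 1731 against 1417 to 1499, with 2 of 6 higher and 1 lower. The brightest of these was *Xbp1*, the one that was lower (-0.19). *Jchain*, the joining chain of secreted antibodies, gave 378 and 353 against 126 and 113 and rose by 1.49 on the log2 scale (adjusted p = 5.87e-08 by limma). CD4 T cell markers summed to 20110.1 to 20191 against 21173 to 21337, with 5 of 8 lower and 1 higher. The part of these cells in the rise of *Zeb2* and the other factors was not tested, and the single markers were named after their values were seen.

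Across 14 other ways of processing the arrays, *Zeb2* ranged from 0.38 to 0.91 on the log2 scale, *Eomes* from 0.47 to 0.69, *Bhlhe40* from 0.56 to 0.58 and *Hopx* from 0.49 to 0.57. These 4 genes passed the threshold in 13 of the 14. *Runx1* ranged from -0.27 to -0.22 and passed in 11, and *Tbx21*, from -0.17 to -0.07, did not pass in any. *Runx3* ranged from -0.13 to 0.09 and did not pass in any either.

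**Figure D5:**
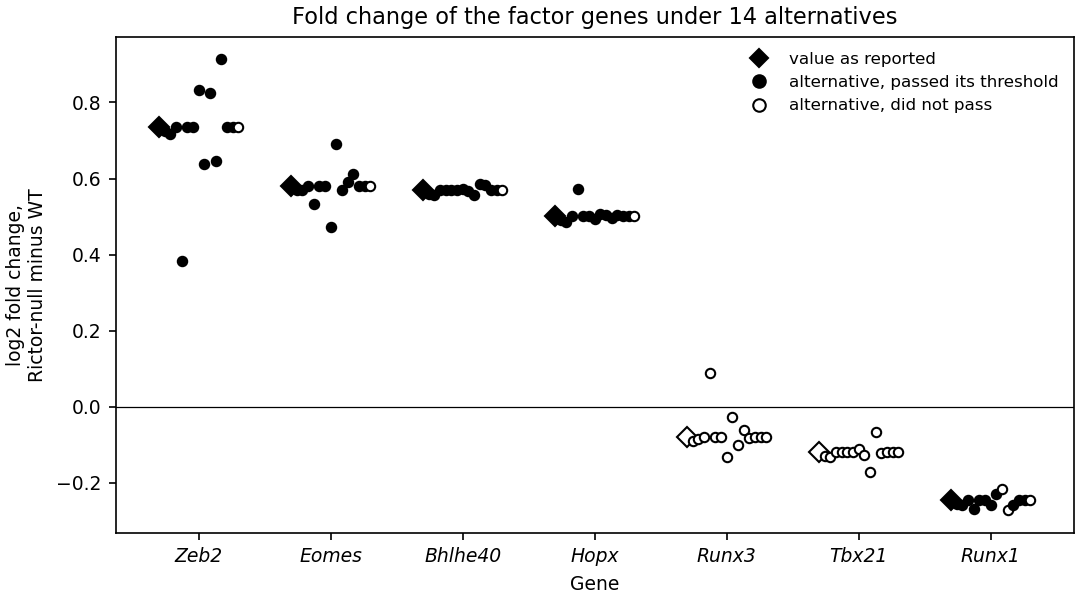
Log2 fold change (Rictor-null minus WT) of the 7 genes as reported (diamonds) and under 14 alternatives (circles), filled where the gene passed that setting's threshold. *Zeb2*, *Eomes*, *Bhlhe40* and *Hopx* stay above 0 and *Tbx21* and *Runx1* below it in every setting, and *Runx3* crosses 0 in 1.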

How the data were processed

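TFH cells of Rictor-null and WT mice were measured on 4 Affymetrix arrays, 2 per group, grouped by the sample labels. The authors had the RNA labelled with biotin and hybridised by a company, and deposited intensity values on a linear scale. Per the labels, MAS5 and RMA were used, with neither version nor role given. Array medians of 19.98 to 20.4 show that arrays had been scaled before deposit, and control probe sets were not used here.

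Of 45037 probe sets, 34945 carry 1 gene symbol in the platform annotation, 932 several and 9160 none, and only the first kind named a gene. Intensities were taken as log2(intensity + 16), with no filter on low values, and 1 probe set stood for each of 18193 genes. Rictor-null minus WT was fitted by lmFit of limma 3.58.1 (R 4.3.3), followed by eBayes with a mean-signal trend and Benjamini-Hochberg adjustment at a threshold of 0.05, over genes or, for single probe sets, over all probe sets. A fold change on this scale understates that of dim genes. Precision is limited by the small number of arrays, and an exact permutation test of 2 against 2 arrays cannot give a two-sided p under 0.333.

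The fit was tested on simulated data. The members and gene lists were chosen with earlier results of these data known. Named are all members, per list up to 4 genes of smallest p, and *Ifng*, *Cxcr3*, *Cbfb*, *Zeb1*, *Bhlhe41* and *Rictor* whatever they showed. Some other genes are named for their direction or because lists share them. Alternatives were quantile normalization, median centring, omission of dim probe sets, averaging a gene's probe sets, eBayes with no trend, a replicate block, each array left out, a pseudocount of 1, adjustment over all probe sets, and the test named in the methods with and without adjustment. The last is an unpaired one-tailed t-test, run with the tail in the direction in which each gene moved. Replicate numbers did not pair the arrays (correlation of deviations -0.03 over genes). Promoter windows came from RefSeq (GRCm38.p6), with exact matches to motifs.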

Additional observations from a re-analysis of the deposited data

How the results depend on the processing

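With 2 arrays per group, the calls of *Eomes*, *Zeb2*, *Bhlhe40* and *Hopx* held in 13 of 14 alternatives. They were lost in the test named in the methods after Benjamini-Hochberg adjustment, which uses each gene's own spread. That test is a one-tailed t-test, here with the tail in the direction in which each gene moved. Its threshold is thus looser than the two-sided one of limma. Adjusted, it called 0 of the factor genes higher, 0 lower, and 3 of all genes higher and 3 lower. Unadjusted, it called 5374 of all genes, 2231 of them lower. With a replicate block the counts were 2366 higher and 1382 lower, against 2283 and 1308 without, and 4 and 1 of the factor genes as before. With the mean of all probe sets, 842 genes fell and *Runx3* turned to 0.0878. Leaving out 1 array, a fit in which the lone array is assumed to vary like the other group, gave 930 to 2000 genes higher, 457 to 1048 lower, and 0 to 1 of the factor genes lower. The low counts came without WT replicate 1 (1005 higher, 457 lower) and without WT replicate 2 (930 higher, 494 lower), and *Runx1* was the gene lost in both. The causes were not tested. Probe sets under the array median, such as 2 of *Zeb2*, cannot show a change well.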
